A study of Rattus norvegicus with 458 samples.

Results

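This report covers miR-132 and miR-212 in the tissues of the rat, as the 4 mature names miR-132-3p, miR-132-5p, miR-212-3p and miR-212-5p. These are all rows of the miRNA count table in which a part of the name is miR-132 or miR-212 with an arm suffix and no precursor tag, 4 of 7534 names. Small RNA of 23 tissues of naïve Sprague Dawley rats of 12 to 13 weeks was sequenced, with no transgene, treatment or stimulation in any group. Samples of 10 rats, 5 male (rats 2 to 6) and 5 female (rats 7 to 11), stood for 19 tissues. Testis, ovary and uterus had 5 rats each, and the dorsal root ganglion had 1 pool per sex that joined 5 rats. The paper states that the ganglion RNA came from Takeda Pharmaceuticals, and no RNA integrity number is given for it. In comparisons with the ganglion, tissue and source of the RNA therefore cannot be told apart. The labels Cortex and Medulla stand for kidney cortex and kidney medulla. By the same rule 4 libraries labelled Duodenum (rats 2, 4, 7 and 11) and 3 labelled Hippocampus (rats 2, 6 and 7) were left out, which left 200 samples, 7 of them from the hippocampus and 6 from the duodenum. Since stimulation was not part of the design, the link of these miRNAs to neuronal activity is background here and was not measured.

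Both miRNAs are cut from neighbouring hairpins of one primary transcript. In neurons its transcription is known to be induced by synaptic activity and neurotrophins through the factor CREB, and miR-132-3p is known to repress p250GAP, a brake on dendrite growth. The 3p strand of each hairpin is the one usually described as the guide strand, and the 5p strand as its partner. Outside the brain the pair is also known from ovarian granulosa cells after luteinizing hormone and from pancreatic islets.

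The sequences are shown because the shared and the differing bases decide which reads can be told apart and which targets can be shared. They are RefSeq mature sequences of the rat assembly GRCr8, all on the plus strand of chromosome 10, with the seed (bases 2 to 8) in capitals.
rno-miR-132-3p: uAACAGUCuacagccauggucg
rno-miR-212-3p: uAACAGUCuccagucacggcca
rno-miR-132-5p: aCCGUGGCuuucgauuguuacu
rno-miR-212-5p: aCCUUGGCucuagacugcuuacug

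The 3p strands share the seed AACAGUC, and of 693 rat mature names in RefSeq only these 2 carry it. They are equal in their first 9 bases and at 17 of 22 positions. Counted from the 5′ end, with the base of miR-132-3p first, the differences are A10C C14U U17C U20C G22A. The 5p strands have different seeds, CCGUGGC and CCUUGGC, and are equal at 14 of 22 positions. The miR-212 hairpin lies at chr10:60521740-60521850 and the miR-132 hairpin at chr10:60522033-60522133, with 182 bases between them. The mature positions are chr10:60521771-60521794 (miR-212-5p), chr10:60521811-60521832 (miR-212-3p), chr10:60522055-60522076 (miR-132-5p) and chr10:60522091-60522112 (miR-132-3p). No other gene of the table overlaps either hairpin. The nearest are Hic1, a protein-coding gene that ends at 60517812, and the long non-coding RNA LOC120095261, which starts at 60522142.

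All 4 names were highest in the cerebrum, followed by the hippocampus and the brainstem, and far lower in nearly every tissue outside the nervous system. Levels are given in CPM, counts of a name scaled to all reads assigned to any name in that sample. In bulk tissue, fewer cells that make a miRNA and fewer copies in each cell cannot be told apart. The totals behind the 200 samples ran from 376401 to 17725805 (median 4853063.5), and the 5 testis samples were the shallowest. The adrenal gland and uterus of rat 8 and the ovary of rat 11 had profiles closest to the duodenum, against their labels. They were kept, and without them the number of calls in single tissues was the same (64 of 92).

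miR-132-3p, the guide strand of its hairpin, lay between 4419 and 7082 CPM in the 10 cerebrum samples, with a median of 5767. In the 7 hippocampus samples it lay between 1405 and 2155 (median 1645). In the 10 brainstem samples it lay between 684 and 1687 (median 743), and in the 10 cerebellum samples between 176 and 342 (median 271). No cerebrum value overlapped with the hippocampus and no brainstem value with the cerebellum, whereas the highest brainstem sample, rat 9, reached into the range of the hippocampus. The means were 5736 ± 845 (SD, n = 10), 1718 ± 246 (n = 7), 883 ± 315 (n = 10) and 266 ± 47.4 (n = 10), so that the cerebrum mean was 21.6-fold that of the cerebellum.

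miR-132-5p, the partner strand, followed the same order at lower read numbers. It lay between 590.3 and 765 CPM in the cerebrum (median 694, mean 697 ± 59.9 SD, n = 10) and between 139.8 and 227 in the hippocampus (median 186, mean 186 ± 28.2, n = 7). It lay between 64.3 and 157 in the brainstem (median 85.2, mean 91.7 ± 25.6, n = 10) and between 17.2 and 32.8 in the cerebellum (median 24.9, mean 25.4 ± 5.33, n = 10). The cerebrum mean was 27.4-fold the cerebellum mean.

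miR-212-3p, which carries the same seed as miR-132-3p, lay between 789 and 1242 CPM in the cerebrum (median 896, mean 954 ± 144 SD, n = 10). In the hippocampus it lay between 364 and 539 (median 429, mean 429.6 ± 60.9, n = 7), in the brainstem between 141 and 414 (median 191, mean 212 ± 77.6, n = 10) and in the cerebellum between 18.2 and 38.5 (median 29.1, mean 27.9 ± 6.37, n = 10). miR-212-5p lay between 385 and 559.8 CPM in the cerebrum (median 485, mean 478 ± 66.6, n = 10), between 154 and 217 in the hippocampus (median 199.8, mean 189 ± 23.9, n = 7), between 75.7 and 197 in the brainstem (median 96.6, mean 106 ± 34.0, n = 10) and between 10.5 and 18.2 in the cerebellum (median 14.2, mean 13.9 ± 2.62, n = 10). For these 2 names the cerebrum mean was 34.2-fold and 34.3-fold that of the cerebellum.

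**Figure D1:**
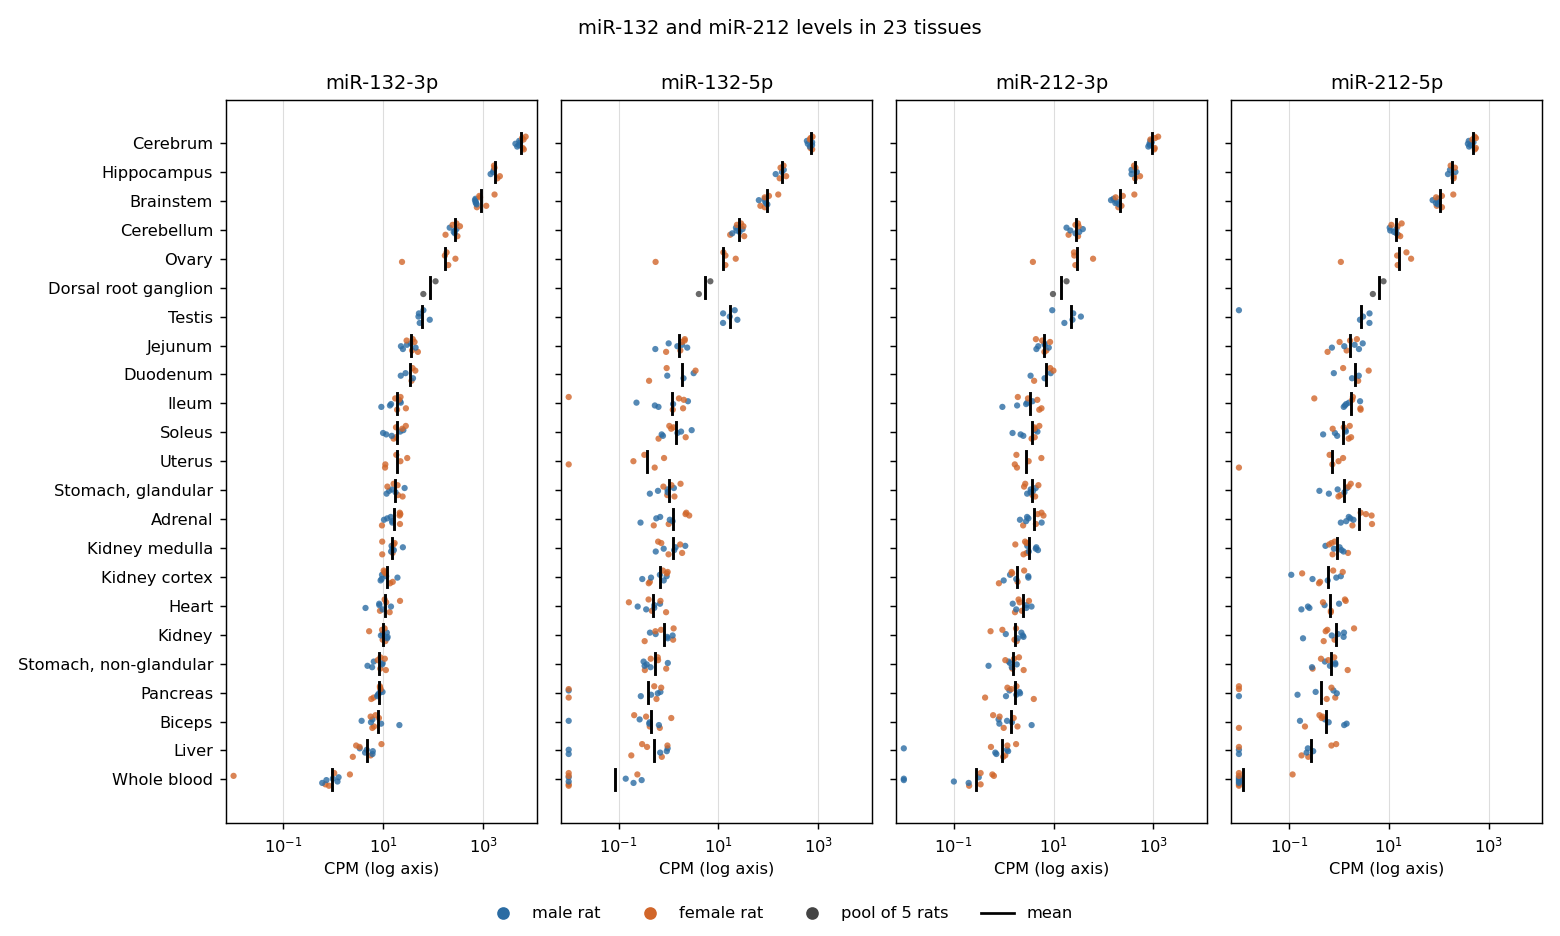
CPM (log axis) of the 4 names in every sample of 23 tissues, sorted by the mean of miR-132-3p, with points for single samples (colour for sex, grey for pools) and a bar for the mean. Samples with no read are drawn at the left edge of the axis, at 0.01 CPM. The brain regions stand to the right of all other tissues except that the cerebellum overlaps with ovary and testis and, for miR-212-3p, with a ganglion pool.

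The order cerebrum, hippocampus, brainstem, cerebellum was also followed within single rats. Of 7 rats with all 4 regions, 7 kept it for miR-132-5p and 6 for each of the other names. The exception was rat 9, whose brainstem and hippocampus held 1687 and 1645 CPM of miR-132-3p, 414 and 409 CPM of miR-212-3p, and 197 and 174 CPM of miR-212-5p. Over cerebrum, brainstem and cerebellum, which all 10 rats gave, 10 of 10 rats kept the order for every name.

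**Figure D2:**
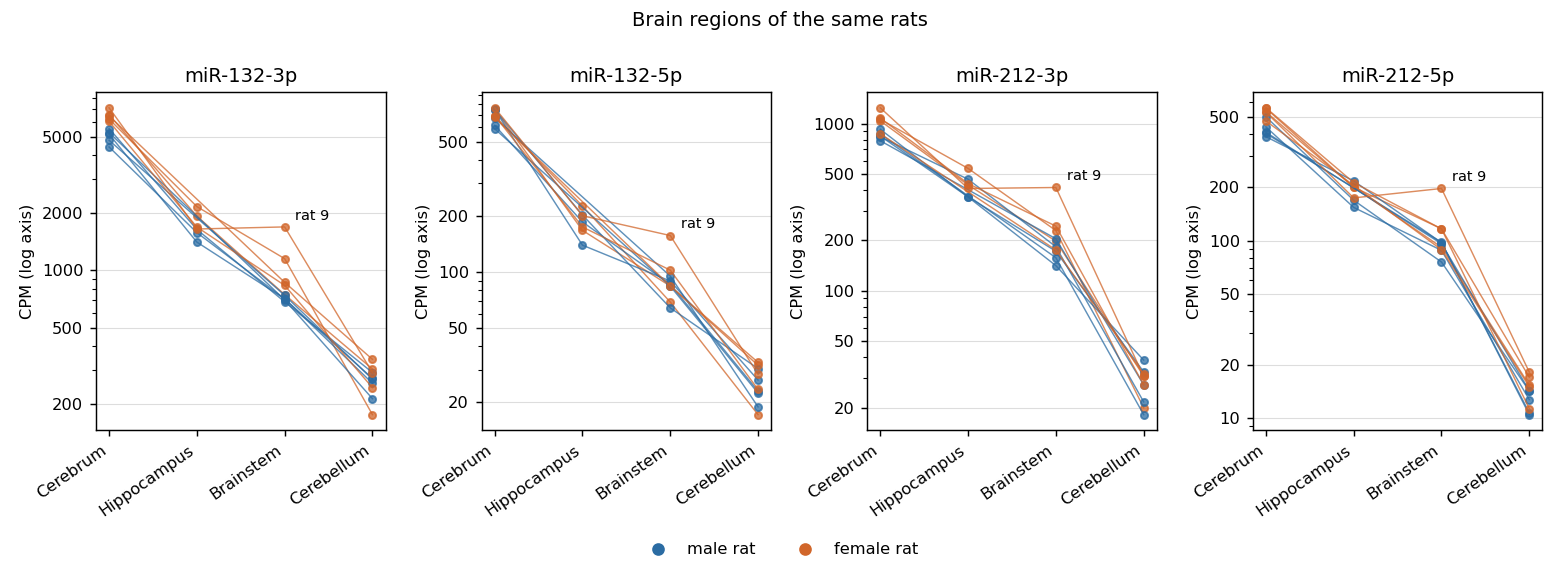
CPM (log axis) of the 4 names in the brain regions, with a line for each rat and colour for sex. Lines fall from the cerebrum to the cerebellum, except between hippocampus and brainstem in rat 9 for miR-132-3p, miR-212-3p and miR-212-5p.

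The brainstem sample of rat 9 stood apart from the other brainstem samples. It was the highest of 10 for all 4 names. The summed level of the 4 matched neuron markers of a list of 5 (miR-124-3p, miR-128-3p, miR-137-3p, miR-153-3p) was 14630 CPM in it and 6976 to 9248 in the others. The summed level of 3 oligodendrocyte markers was 7660 CPM in it and 11050 to 13180 in the others, and none of these markers was at 0 in all brainstem samples. Their part in the result was not tested. Without rat 9 the brainstem means were 793 ± 148 (SD, n = 9) for miR-132-3p, 84.4 ± 11.8 for miR-132-5p, 189 ± 32.9 for miR-212-3p and 96.5 ± 13.1 for miR-212-5p.

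The labels of the brain samples were checked with the same neuron markers. Their sum lay between 39220 and 66480 CPM in the cerebrum, 26100 and 37000 in the hippocampus, 19160 and 29510 in the cerebellum and 6976 and 14630 in the brainstem, against at most 1036 in any tissue outside the nervous system. The cerebellum was above the brainstem for this sum, which miR-124-3p and miR-128-3p carry, while the mean of miR-137-3p was lower in the cerebellum (90.2 against 113 CPM) and those of miR-153-3p were close (386.7 and 388.6 CPM). All 4 names of miR-132 and miR-212 were lower in the cerebellum.

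Each pair of brain regions was then compared in one edgeR quasi-likelihood fit of all tissues, with p-values adjusted by Benjamini-Hochberg over the 1596 names tested. All 24 values (4 names in 6 pairs) passed an adjusted p of 0.05 in the order of the levels above. Among all names tested, 3.07% were higher in cerebrum than hippocampus, 8.08% in cerebrum than brainstem and 13.0% in cerebrum than cerebellum. The share was 6.45% for hippocampus over brainstem, 9.40% for hippocampus over cerebellum and 12.5% for brainstem over cerebellum.

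On the log2 scale the cerebrum exceeded the cerebellum by 3.87 (SE 0.265, adjusted p = 4.42e-30 in edgeR) for miR-132-3p, by 4.22 (SE 0.354) for miR-132-5p, by 4.54 (SE 0.302) for miR-212-3p and by 4.55 (SE 0.356) for miR-212-5p. By the size of this difference the 4 names held the places 20, 15, 11 and 10 of 1596. Between cerebrum and brainstem the differences were 2.99, 3.19, 2.44 and 2.44 in the same order of names, at the places 8, 4, 21 and 22. The miR-132 strands therefore stood nearer the top than the miR-212 strands against the brainstem, and the reverse held against the cerebellum.

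Cerebrum and hippocampus differed less, by 1.86 (SE 0.278), 2.04 (SE 0.367), 1.27 (SE 0.298) and 1.45 (SE 0.354), with the largest adjusted p of the 4 at 0.00634 (edgeR). The calls of both miR-212 strands were lost with no filter on low counts (adjusted p of 0.150 and 0.0871) and with 1 flow cell alone (0.195 and 0.132). Hippocampus against cerebellum gave 2.02, 2.19, 3.28 and 3.10. Brainstem against cerebellum gave 0.89, 1.03, 2.10 and 2.11, about the same for both strands of a hairpin and more for miR-212 than for miR-132. That of miR-132-5p was lost with no filter (adjusted p = 0.0972), with 1 flow cell alone (0.0524) and with all libraries kept (0.0678), and that of miR-132-3p with no filter (0.0827). As log2(CPM + 1) the brainstem exceeded the cerebellum by 1.69 for miR-132-3p and by 1.80 for miR-132-5p. The size of this step therefore depends on the scaling.

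The steps from hippocampus to brainstem were 1.13 (SE 0.258), 1.15 (SE 0.338), 1.17 (SE 0.284) and 0.99 (SE 0.334), the smallest of the order for the miR-212 strands. For the miR-132 strands the step from brainstem to cerebellum was smaller in this fit (0.89 and 1.03). From hippocampus to brainstem the adjusted p-values in edgeR were 0.000488, 0.0102, 0.00118 and 0.0316. The call of miR-212-5p was lost when rat 4, 5, 7 or 10 was left out, with log2 differences of 0.96, 1.00, 0.96 and 0.92 and adjusted p-values of 0.0773, 0.0564, 0.0503 and 0.0745. With the 3 hippocampus libraries of the rule kept under their labels, all 4 of these calls were lost (log2 differences of 0.69, 0.70, 0.70 and 0.55). They were also lost with 1 flow cell alone (0.87, 1.00, 0.99 and 0.72), and with no filter on low counts miR-132-3p was the only one to pass.

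The 4 brain regions together were higher than the 18 tissues outside the nervous system for all 4 names. Over all names tested, 25.5% were higher in brain and 35.4% lower, 407 against 565 names, so that 41.9% of calls were higher. With TMM scaling in place of the upper quartile that share was 55.5%. The log2 fold changes were 4.41 (SE 0.0886, adjusted p = 3.72e-106 in edgeR) for miR-132-3p, 5.08 (SE 0.125) for miR-132-5p, 4.25 (SE 0.0989) for miR-212-3p and 4.89 (SE 0.124) for miR-212-5p. The largest adjusted p of the 4 was 1.18e-89. The value of each 5p strand was above that of its 3p strand, but the 5p strands had few reads in most tissues outside the brain. In libraries with at least 10 counts of both strands, the log2 ratio of 3p to 5p in brain against other tissues did not pass for either hairpin. It was -0.33 for miR-132 (exact sign-flip adjusted p = 0.188) and 0.20 for miR-212 (0.175).

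The scaling moves these values, since the median of all names was -0.98 with the upper quartile, -0.51 with TMM and -0.64 with DESeq2. Above that median the names lay by 5.39, 6.06, 5.23 and 5.87 with the upper quartile, by 5.77, 6.41, 5.60 and 6.20 with TMM, and by 6.03, 6.72, 5.88 and 6.46 with DESeq2. By size the names held the places 121, 76, 131 and 88 of 1596.

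In single samples, none of the 161 samples from outside the nervous system reached the lowest of the 27 cerebrum, hippocampus and brainstem samples for any of the 4 names. Of all names tested, 9.46% were separated in this way. The highest such sample was an ovary for miR-132-3p (278 against 684 CPM), miR-212-3p (61.8 against 141) and miR-212-5p (28.1 against 75.7), and a testis for miR-132-5p (23.9 against 64.3). The cerebellum was not separated in this way. Above its lowest sample lay 3, 3, 7 and 4 of the 161 samples for miR-132-3p, miR-132-5p, miR-212-3p and miR-212-5p.

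The dorsal root ganglion, which holds the cell bodies of sensory neurons, held place 6 or 7 of 23 tissues for every name, below the brain regions. Its male pool held 111 CPM of miR-132-3p, 6.87 of miR-132-5p, 18.2 of miR-212-3p and 7.87 of miR-212-5p. Its female pool held 63.2, 4.04, 9.72 and 4.81 CPM of them. Against the mean of the brain regions the log2 differences were -3.46, -4.21, -3.62 and -3.70, and all 4 passed the threshold (edgeR, largest adjusted p = 3.85e-06), as did 11.2% of all names in that direction. The neuron markers summed to 856 and 1206 CPM in the pools.

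Against the tissues outside the nervous system the ganglion was higher by 0.95 (adjusted p = 0.0241 in edgeR) for miR-132-3p and by 1.18 (adjusted p = 0.0311) for miR-212-5p. The values 0.87 for miR-132-5p and 0.63 for miR-212-3p did not pass (adjusted p of 0.182 and 0.277). So 2 of 4 passed, where 16.2% of all names were higher. Without the male pool the 2 calls fell to 0.78 and 1.07, and without the female pool they stood at 1.11 and 1.30, and none of the 4 names passed in either case, where the lone pool was assumed to vary like the other groups. With TMM or DESeq2 all 4 passed, and with no filter on low counts none did.

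The ovary was the highest tissue outside the nervous system for 3 of the 4 names. Its 5 samples, rats 7 to 11 in order, held 278, 171, 185, 199.6 and 23.6 CPM of miR-132-3p. The same samples held 22.2, 13.8, 12.5, 13.8 and 0.550 CPM of miR-132-5p, 61.8, 26.0, 25.6, 27.3 and 3.85 CPM of miR-212-3p, and 28.1, 14.8, 22.7, 15.1 and 1.10 CPM of miR-212-5p. The sample of rat 11 was the lowest for each name. Its profile over all names was closest to the duodenum (median r = 0.920 over the duodenum samples, against 0.750 over the other ovaries), and its intestine markers summed to 420700 CPM. Without it the ovary means were 208 ± 47.9 (SD, n = 4), 15.6 ± 4.43, 35.1 ± 17.7 and 20.1 ± 6.42.

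Against the mean of the other 22 tissues the ovary was higher by 1.92 (SE 0.193), 1.94 (SE 0.265), 1.66 (SE 0.223) and 2.50 (SE 0.248), with the largest adjusted p at 9.39e-11 (edgeR). Of all names, 22.1% were higher there. All 4 kept their direction and passed when each rat was left out in turn. The neuron markers summed to 73.2 to 182 CPM in the ovary, against 6976 or more in each brain region.

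The testis differed from the ovary in the balance of the 4 names. In rats 2 to 6 it held 53.5, 85.0, 50.5, 51.6 and 63.4 CPM of miR-132-3p and 12.3, 23.9, 16.8, 12.4 and 21.1 CPM of miR-132-5p. It held 16.4, 23.9, 35.2, 24.8 and 9.39 CPM of miR-212-3p and 4.11, 2.66, 3.06, 4.12 and 0 CPM of miR-212-5p. These values rest on few reads, with medians of 27, 9, 9 and 2 counts, and the sample at 0 allows up to 7.04 CPM (3 counts of its total). Against the other 22 tissues miR-132-5p was higher by 1.06 (SE 0.337, adjusted p = 0.00613 in edgeR), and miR-132-3p and miR-212-5p were lower (-1.01 and -1.43, adjusted p of 0.00114 and 0.0141). miR-212-3p had a value of 0.07 and did not pass. By CPM the testis lay above the jejunum for miR-132-3p (log2 difference 0.78, exact permutation adjusted p = 0.00419). Yet the fit, scaled by the upper quartile, put the testis below and the jejunum above the other tissues (by 0.85). The lower call of miR-132-3p in the testis thus goes against the order by CPM, and the cause was not tested. With DESeq2 the values of miR-132-3p and miR-212-5p were -0.10 and -0.61 and did not pass, and miR-212-5p also did not pass without rat 3 or 6 (-1.32 and -1.14). Nor did it pass without rat 8 (-1.23), a female that gave no testis but the only blood sample with a read of miR-212-5p. No call of the testis passed without the filter on low counts, and that of miR-132-5p was also lost with all libraries kept (0.87, adjusted p = 0.124).

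Over all 23 tissues, 64 of 92 values against the other 22 tissues passed the threshold (edgeR), 23 higher and 41 lower. Over all names and tissues, 24.4% of the values were higher and 13.1% lower. With 1 flow cell alone 41 values passed, 23 higher and 18 lower, and of the calls lost 10 were of miR-132-5p and 10 of miR-212-5p, all of them lower calls. All 4 names were higher in 5 tissues, the 4 brain regions and the ovary. All 4 were lower in 8 tissues, namely kidney cortex, whole kidney, heart, liver, biceps, soleus, pancreas and whole blood. No name passed in 5 tissues, the dorsal root ganglion, duodenum, ileum and both parts of the stomach. These calls do not follow the order by CPM throughout. By mean CPM of miR-132-3p the soleus stood above the glandular stomach, yet the fit gave -1.07 and -0.11. Kidney cortex, heart and whole kidney likewise stood above the non-glandular stomach, with -1.50, -1.31 and -1.32 against -0.31 in the fit. The cause was not tested. In the jejunum both 3p strands were higher, by 0.85 (SE 0.160) and 0.71 (SE 0.188), and neither 5p strand passed. That of miR-212-3p was lost with 1 flow cell alone (0.74, adjusted p = 0.0883).

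Outside these tissues the levels were low. miR-132-3p had mean levels of 35.3 ± 8.70 CPM (SD, n = 10) in the jejunum and 34.7 ± 8.00 (n = 6) in the duodenum, and fell to 4.79 ± 2.02 (n = 10) in the liver. The pancreas held 8.00 ± 1.19 CPM (n = 10). Its RNA integrity numbers of 4.9 to 6.8 were the lowest by median of all tissues, and their part in this level was not tested. In whole blood miR-132-3p stood at 0.945 ± 0.553 CPM (n = 10), and a read of miR-212-5p was found in 1 of 10 samples, rat 8. Leaving out rat 8 left no blood read of miR-212-5p. The number of calls over all tissues was then 55 of 92 in place of 64. The 9 calls lost were all of miR-212-5p, in tissues where it was lower. The 9 blood samples at 0 allow up to 0.302 to 0.638 CPM each (3 counts of the total, counting error only). By CPM the cerebrum mean of miR-132-3p was 1198-fold the liver mean. Against the other tissues the fit gave 6.05 for the cerebrum and -2.66 for the liver on the log2 scale. The size of this fold therefore depends on the scaling.

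Neighbours in the order of mean levels were compared by two-sided permutation tests of log2(CPM + 1), exact where a group had fewer than 10 samples, with adjustment over all 88 neighbours. These tests take the tissues of a rat as unpaired. As within-rat differences none of 79 neighbours passed, with 16 at an unadjusted exact p under 0.05 and a smallest adjusted p of 0.0514. That value belongs to 3 tests at 0.00195, the smallest exact p that 10 rats can give. With this floor and the adjustment over 79 tests, a step found in every rat need not pass, so these tests left the single steps undecided. The order of cerebrum, brainstem and cerebellum was kept in 10 of 10 rats for every name, as given above. Of the unpaired tests 18 passed, namely 6 for miR-132-3p, 3 for miR-132-5p, 5 for miR-212-3p and 4 for miR-212-5p. The steps from cerebrum to hippocampus, hippocampus to brainstem and brainstem to the next tissue passed for all 4 names. That next tissue was the cerebellum for the miR-132 strands and the ovary for the miR-212 strands. For miR-212-3p and miR-212-5p the ovary thus stood above the cerebellum by mean CPM. As log2(CPM + 1) the differences of ovary over cerebellum were -0.31 and -0.18, and neither passed (exact permutation adjusted p of 0.919 and 0.947). The step from the cerebellum to the tissue below it did not pass either. That tissue was the ovary for miR-132-3p (log2 difference 0.97, exact permutation adjusted p = 0.0996). It was the testis for miR-132-5p (0.55, exact adjusted p = 0.0802) and for miR-212-3p (0.42, exact adjusted p = 0.431). For miR-212-5p the neighbour was the ganglion, whose 2 pools (4.81 and 7.87 CPM) lay below all 10 cerebellum samples (log2 difference 1.04). The exact p of 0.0303 is the smallest that 10 against 2 can give, and it could not pass after adjustment. Of the remaining steps the only ones past the threshold were testis to jejunum and duodenum to ileum for miR-132-3p, jejunum to adrenal for miR-212-3p, and liver to whole blood for all but miR-132-5p.

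Female and male rats were compared in the 19 tissues that both sexes gave. None of the 76 values passed the threshold in edgeR (smallest adjusted p = 0.127), with 3 at an unadjusted p under 0.05, where 1.05% of all values passed. DESeq2 also passed 0 of them, with 5 at an unadjusted p under 0.05. In the brain the females had the higher value in 16 of 16 comparisons of name and region, from 0.08 to 0.49 on the log2 scale. These 16 come from the same rats and are not independent. Over all names tested, by mean log2(CPM + 1), 43.4% of such values were higher in females (values at 0 in both sexes counted as not higher). By the same measure 4.7% of all names were higher in females in every brain region, as the 4 names here were.

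The sexes did not overlap in 4 of the 76 values, 3 of them for miR-132-3p in the brain and 1 for miR-212-3p in the kidney medulla, where females were lower (1.71 to 2.89 against 2.97 to 4.87 CPM). Over all names tested 1.64% of values did not overlap, and 0.627% in the cerebrum, 0.627% in the brainstem and 7.08% in the hippocampus, which had fewer rats. The 5 female cerebrum samples (rats 7 to 11) held 6428, 6019, 7082, 6512 and 6185 CPM and the 5 male samples (rats 2 to 6) 4793, 5153, 4419, 5515 and 5254 CPM. In the brainstem the female samples lay between 747 and 1687 and the male samples between 684 and 739.7, and in the hippocampus between 1645 and 2155 (n = 4) and between 1405 and 1636 (n = 3). Exact permutation tests of these single values, added after the data were seen, gave p = 0.00794 in cerebrum and brainstem, the smallest that 5 against 5 can give, and p = 0.0571 in the hippocampus. After adjustment over the 76 values none passed (adjusted p = 0.172 for the first 2 and 0.460 for the third), and 8 had an unadjusted exact p under 0.05. The cerebellum overlapped.

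Ratios between the names within a library need no scaling to the library total. The 0.5 added to each count weighs on those with few reads. They compare reads, since ligation and amplification can favour one sequence over another, which was not tested. In the cerebrum there were 6.01 reads of miR-132-3p for 1 of miR-212-3p (geometric mean, n = 10). There were 4.00 in the hippocampus (n = 7), 4.18 in the brainstem (n = 10) and 9.59 in the cerebellum (n = 10). On the log2 scale the ratio lay between 2.41 and 2.89 in the cerebrum, 1.76 and 2.17 in the hippocampus, 1.78 and 2.33 in the brainstem and 2.92 and 3.64 in the cerebellum. The cerebellum was above all other brain samples and the cerebrum above all hippocampus and brainstem samples, while the latter regions overlapped.

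Of 24 comparisons of the 4 ratios between brain regions, chosen after the data were seen, 13 passed an adjusted p of 0.05 in permutation tests. For miR-132-3p to miR-212-3p, 5 of 6 pairs passed, from a log2 difference of 0.59 (cerebrum over hippocampus) to -1.26 (hippocampus against cerebellum), and hippocampus against brainstem did not (-0.06, exact permutation adjusted p = 0.568). The ratio of miR-132-5p to miR-212-5p moved in the same way, with 1.47 in the cerebrum, 0.978 in the hippocampus, 0.867 in the brainstem and 1.81 in the cerebellum. The ratio of the strands of a hairpin moved less. There were 8.18, 9.26, 9.47 and 10.5 reads of miR-132-3p for 1 of miR-132-5p and 2.00, 2.27, 1.97 and 1.98 reads of miR-212-3p for 1 of miR-212-5p in cerebrum, hippocampus, brainstem and cerebellum. As within-rat differences 9 of the 24 passed.

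**Figure D3:**
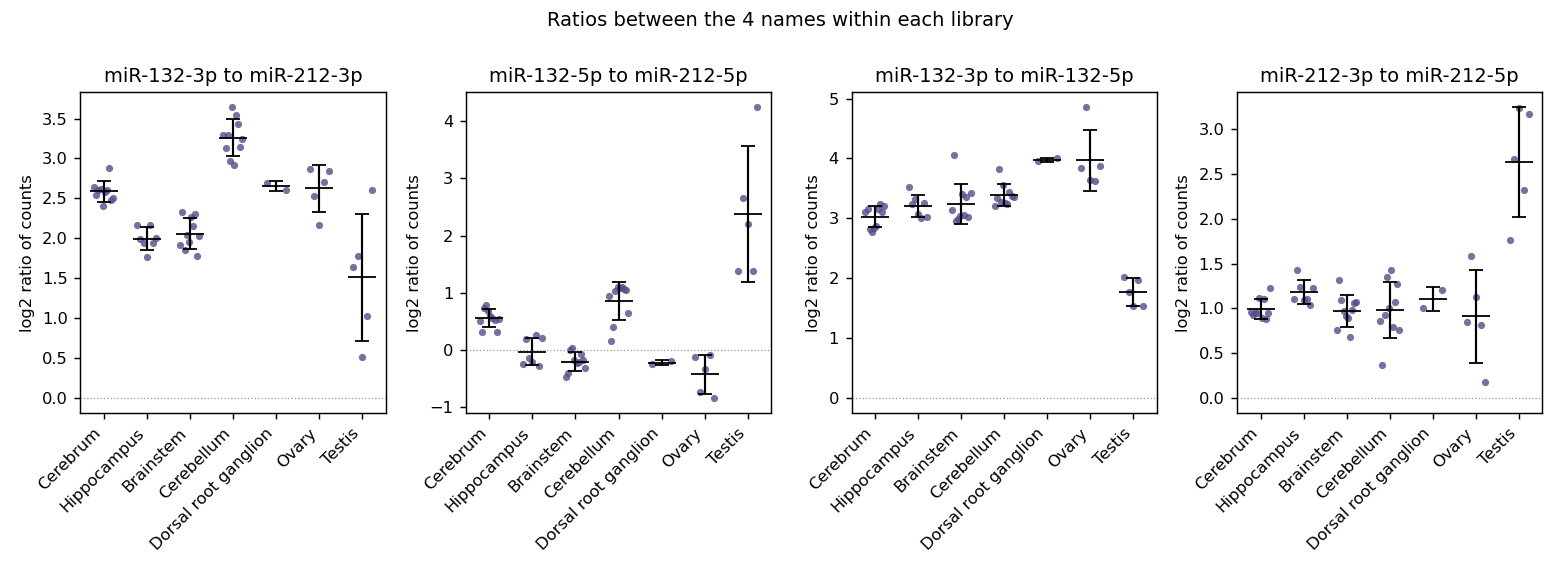
log2 ratio of the counts (plus 0.5) of 2 names within each library, for the brain regions, dorsal root ganglion, ovary and testis, with a point for each library and the mean with its SD. The ratio of the hairpins is highest in the cerebellum among the brain regions, and the testis stands apart from the ovary in all panels except that of miR-132-3p to miR-212-3p.

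Testis and ovary differed in all 4 ratios, a comparison also chosen after the data were seen. In the ovary there were 15.6 reads of miR-132-3p for 1 of miR-132-5p and in the testis 3.41. The log2 difference was -2.20 (exact permutation adjusted p = 0.0106, n = 5 and 5). For miR-212-3p to miR-212-5p it was 1.72 (exact adjusted p = 0.0106), for miR-132-3p to miR-212-3p -1.11 (exact adjusted p = 0.0238) and for miR-132-5p to miR-212-5p 2.80 (exact adjusted p = 0.0106). Only miR-132-3p to miR-212-3p overlapped between the organs. Without ovary rat 11 the differences were -1.97, 1.89, -1.13 and 2.73, and each still passed. The testis side rests on the few reads given above.

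Between brain regions and the tissues outside the nervous system the ratios were compared within rats by exact sign-flip tests over 10 rats. The ratio of miR-132-3p to miR-132-5p was lower in brain by 0.60 on the log2 scale (lower in 10 of 10 rats, exact permutation adjusted p = 0.0026), and that of miR-212-3p to miR-212-5p was lower by 0.44 (10 of 10 rats, exact adjusted p = 0.0026). The ratio of miR-132-3p to miR-212-3p was higher by 0.23 (9 of 10 rats, exact adjusted p = 0.00586) and that of miR-132-5p to miR-212-5p by 0.39 (10 of 10 rats, exact adjusted p = 0.0026). Outside the brain many libraries held few reads. With 1 in place of 0.5 added to each count, miR-132-3p to miR-132-5p differed by -0.37, with 1 of 10 rats higher in brain. That of miR-212-3p to miR-212-5p then differed by -0.28, and each ratio still passed (largest exact adjusted p = 0.00391). With at least 10 counts of both names, a setting chosen after the data were seen, miR-132-3p to miR-212-3p passed, at 0.30 (higher in 10 of 10 rats, exact adjusted p = 0.00781). There the ratio of miR-212-3p to miR-212-5p turned to 0.20 (exact adjusted p = 0.175), and the ratio of miR-132-3p to miR-132-5p stood at -0.33 (7 rats, exact adjusted p = 0.188). That of miR-132-5p to miR-212-5p stood at 0.60, higher in 5 of 5 rats, where the smallest exact p that 5 rats can give is 0.0625, so that it could not pass.

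Within tissues, miR-132-3p and miR-212-3p were correlated over rats, as log2(CPM + 1) with permutation p-values adjusted over 19 tissues. By Pearson's r 8 of 19 tissues passed, and by Spearman's rho 3, the soleus, cerebrum and brainstem. With the most counted name left out of the total, 4 tissues passed by r and only the soleus by rho, with an adjusted permutation p of 0.117 for the rho of cerebrum and of brainstem. Among the 8, r fell to 0.353 in the cerebellum, 0.357 in the ileum and 0.364 in the kidney without the 2 rats farthest from the median. In the soleus r was 0.928 (permutation adjusted p = 0.00019) and rho 0.915 (0.00931, n = 10), and r was 0.861 without the 2 rats farthest from the median of miR-132-3p. In the cerebrum r was 0.821 (permutation adjusted p = 0.0237) and rho 0.842 (0.0343, n = 10), and r was 0.745 without 2 rats. In the brainstem r was 0.896 (permutation adjusted p = 0.0237) and rho 0.818 (0.0371, n = 10), and r fell to 0.596 without 2 rats, so that it rests in part on them. Each sex held 5 rats, too few for a value within a sex.

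The isomiR table, which lists the counts of each read sequence of a name, showed which forms were sequenced. It was used for 1 run of each of 190 libraries, from the 19 tissues that both sexes gave, so that ovary, testis, uterus and ganglion are not among the other tissues here and the shares rest on part of the reads. The most counted forms are given first, because they carry most of the reads, in DNA letters with the seed in capitals.
miR-132-3p: tAACAGTCtacagccatggtcg
miR-132-5p: aCCGTGGCtttcgattgttact
miR-212-3p: tAACAGTCtccagtcacggcc
miR-212-5p: aCCTTGGCtctagactgcttact
In the brain regions they held 60.7%, 58.6%, 55.6% and 56.9% of the reads of their names. For miR-132 they equal the RefSeq mature sequences. For miR-212 they are 1 base shorter at the 3′ end, and the RefSeq forms held 16.7% (miR-212-3p) and 13.1% (miR-212-5p).

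Next among the miR-132-3p reads was a form with an added 3′ T, where the miR-132 hairpin has a C. It is shown because its share differed most between brain and other tissues.
miR-132-3p plus T: tAACAGTCtacagccatggtcgt
Over libraries with at least 50 reads of miR-132-3p, it held 14.8% ± 0.875 of the reads in the brain regions and 25.5% ± 2.44 in the other tissues (SD over 10 rats). The difference of -10.6 percentage points was found in 10 of 10 rats (exact sign-flip p = 0.00195, the smallest 10 rats can give), and this form was chosen after the data were seen. The mature form itself was higher in brain by 8.93 points (8 of 10 rats, exact permutation adjusted p = 0.0234), and the share with the same 5′ end, which fixes the seed, had a difference of -1.85 (exact adjusted p = 0.510). The other names were not compared, since too few of the libraries used had 50 of their reads outside the brain.

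Libraries run on lane 8 of one flow cell stood apart in these shares. The 5 libraries (cerebrum rat 9, brainstem rat 6, duodenum rat 8, kidney medulla rat 7 and glandular stomach rat 4) had 35.9% to 52.5% of their miR-132-3p reads with the same 5′ end, against 92.0% to 100% in 106 libraries of 15 other lanes. A form with a further T at the 5′ end, which moves the seed, made up 1.64% of the brain reads with this lane and 0.000309% without it.
miR-132-3p with a 5′ T: tTAACAGTctacagccatggtcg
Without lane 8 the mature form was higher in brain by 10.04 points (10 of 10 rats, exact permutation adjusted p = 0.00391), the 3′ T form lower by 10.5 points in 10 of 10 rats, and the 5′ end share differed by -0.37 (exact adjusted p = 0.176).

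The brain regions differed among themselves in the 3′ T share. Without lane 8 it was 10.2% in the brainstem, 13.2% in the hippocampus, 15.7% in the cerebrum and 21.4% in the cerebellum, and 18.6% to 34.0% in the other tissues with at least 3 libraries. The cerebellum thus lay within the range of the means outside the brain, with no test of these region means. For the other 3 names in the brain regions the mean share of a mature sequence plus T was at most 2.02%.

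**Figure D4:**
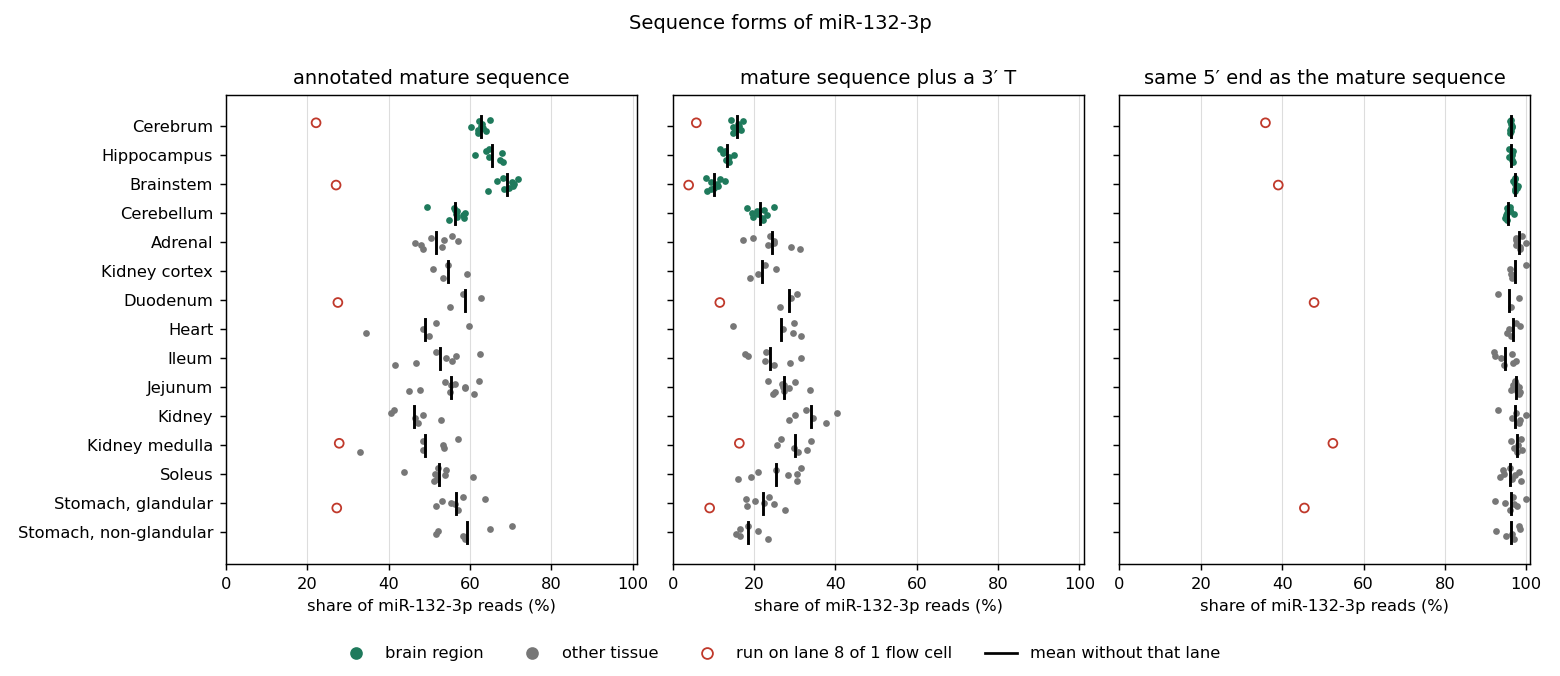
Share (%) of miR-132-3p reads on the annotated mature sequence, on that sequence plus a 3′ T, and on all sequences with its 5′ end, for each library with at least 50 reads, by tissue. Bars are means without lane 8 of one flow cell, whose 5 libraries (open circles) lie at 35.9% to 52.5% in the right panel.

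The tissue patterns of the 4 names were close to each other, with Pearson's r of 0.968 to 0.987 between their mean log2(CPM + 1) over the 23 tissues. The points share libraries and totals, and the values are descriptive. Among the other names the closest to miR-132-3p was miR-146b-3p (r = 0.924), which reached only 3.88 CPM in the cerebrum. The closest to miR-132-5p and miR-212-3p was miR-488-3p (r = 0.951 and 0.941), at 562, 654, 368 and 172 CPM in cerebrum, hippocampus, brainstem and cerebellum. The closest to miR-212-5p was miR-344b-1-3p (r = 0.960), at 145, 98.9, 56.2 and 16.5 CPM. miR-344b-1-3p shared the order of the regions with miR-132 and miR-212, while miR-488-3p was highest in the hippocampus.

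A list of neuronal miRNAs was set beside them. Of 8 listed names 6 were tested, and 6 of 6 were higher in brain than outside the nervous system (25.5% of all names). Their median log2 difference was 5.64, against -0.98 over all names. Between cerebrum and cerebellum 3 were higher, 1 lower and 2 did not pass, with 13.0% of all names higher and 13.0% lower. miR-124-3p, a neuron marker, was lower in the cerebrum (5848 against 11760 CPM, log2 difference -1.55). The median log2 difference of the list was 1.09, and the values of miR-132 and miR-212 were 3.87 to 4.55. Between cerebrum and brainstem 5 of 6 were higher (8.08% of all names), with a median of 1.65. Among the 5 was miR-218-5p, at only 1.41 CPM in the cerebrum and 0.471 in the brainstem. miR-128-3p differed by 3.25, above the 2.44 to 3.19 of miR-132 and miR-212. Between cerebrum and hippocampus 1 of 6 was higher, miR-128-3p by 1.00 (adjusted p = 0.0154 in edgeR), where 3.07% of all names were higher.

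Of 8 miRNAs studied in neuronal activity and dendrites, 6 were higher in brain (25.5% of all names) and 2 (miR-184 and miR-188-5p) lower (35.4%), with a median of 3.17. Between cerebrum and cerebellum 2 were higher (miR-485-5p by 1.06 and miR-138-5p by 1.57), 3 lower (miR-381-3p, miR-188-5p and miR-181a-5p) and 3 did not pass. Between cerebrum and hippocampus 0 of these 8 passed in either direction, where 3.07% of all names were higher. miR-138-5p stands in both lists.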

How the data were processed

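Per the labels, total RNA of each tissue was made into small RNA libraries and sequenced as several runs per library. The authors trimmed adaptors with cutadapt 1.4.1, discarded reads under 17 bases, aligned the rest to miRBase hairpins with the miRDeep2 quantifier and deposited raw counts of reads per miRNA name, and per isomiR sequence, for each run, without normalization. Reads that fit several hairpins carry composite names, and no composite name of a mature miRNA holds one of the 4 names.

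Here 444 of 458 runs (14 repeats of a flow cell lane set aside) were summed to 215 libraries and 207 samples, and the technical libraries of each ganglion pool were added together. For isomiRs 190 run columns were used, 1 for each library of 19 tissues, and the other columns of that table were left out to limit computing time. Members, lists and tests were chosen with earlier results of these data known. R 4.3.3 and edgeR 4.0.16 served for the tests of counts. The quasi-likelihood fit had a term for tissue and none for rat, names were filtered by filterByExpr and scaled by the upper quartile, since the study's methods used a third-quartile offset, and an adjusted p of 0.05 was the threshold. The code was tested on simulated counts. DESeq2 1.42.0, TMM, no filter, all libraries, single flow cell, rat as block and leaving out each rat were alternatives. Levels used Python 3.11.15, numpy 2.4.6, scipy 1.17.1 and pandas 2.3.3, with 100000 resamples where tests were not exact. Named miRNAs besides the members are both lists and, for each member, the 5 names most alike over tissues, of which the closest are given. miR-9 strands of the neuronal list were not matched by name.

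Same-numbered samples come from the same rat. With tissue means removed, the median r between tissues was 0.0185 within a rat (1870 pairs) and -0.00614 between rats (16800 pairs). The limits given for samples at 0 hold for counting error alone, as the reads carry no molecular identifiers. Samples of a tissue are separate rats by their labels.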

Additional observations from a re-analysis of the deposited data

Results flagged for a closer look

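In 88 groups of 5 to 10 samples, 11 extreme samples lay farther from the rest than the 95% limit of Dixon's test, which chance exceeds in about 1 of 20 groups, and they came from 7 combinations of rat and tissue. The brainstem of rat 9 was flagged for all 4 names, at 1687 CPM of miR-132-3p (group median 743), 157 of miR-132-5p (85.2), 414 of miR-212-3p (191) and 197 of miR-212-5p (96.6). Its marker levels are given in the report. In the biceps rat 2 was flagged for miR-132-3p (20.9 CPM, median 6.29) and miR-212-3p (3.63, median 1.08). The other values were 5.19 CPM of miR-132-3p in the kidney of rat 7 (median 10.1), 24.6 CPM of miR-132-3p in the kidney medulla of rat 5 (median 15.2), 4.01 CPM of miR-212-3p in the pancreas of rat 10 (median 1.61), 1.51 CPM of miR-212-5p in the non-glandular stomach of rat 10 (median 0.640) and 0.119 CPM of miR-212-5p in the blood of rat 8, the only blood sample with a read of it.

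Among the libraries left out of every comparison, 3 labelled Duodenum held levels far above the duodenum samples that were used. In rats 2, 4 and 7 they held 1887, 1686 and 651 CPM of miR-132-3p (median of the used samples 37.6), 182, 178 and 132 CPM of miR-132-5p (1.47), 399, 355 and 110 CPM of miR-212-3p (7.57), and 197, 181 and 189 CPM of miR-212-5p (2.14). Their profiles over all names were closest to cerebrum (rat 2, median r = 0.977) and hippocampus (rats 4 and 7, 0.986 and 0.921), against 0.572, 0.596 and 0.535 with the duodenum. The neuron markers summed to 24570, 30890 and 42790 CPM in them and to 65.4 to 160 CPM in the duodenum samples used.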

How the results depend on the processing

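The brain values kept their direction and passed in every alternative run, with log2 fold changes of 4.19 to 5.39 for miR-132-3p, 4.79 to 6.08 for miR-132-5p, 4.02 to 5.24 for miR-212-3p and 4.61 to 5.82 for miR-212-5p. In a fit with rats as a block, which leaves out the ganglion pools, they were 4.46, 5.15, 4.30 and 4.93, and the block changed no call between brain regions (24 of 24 passed). It took the call of miR-212-5p in the testis (-1.08, adjusted p = 0.0928 in edgeR). Of the 24 brain pairs, 17 passed with no filter on low counts, 17 with 1 flow cell alone and 19 with all libraries kept.

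The calls of the ganglion against tissues outside the nervous system were 4 with DESeq2, 4 with TMM, 0 with no filter, 0 with all libraries kept and 0 to 0 without either pool, against 2 as reported. With 1 flow cell alone 41 of 92 values of single tissues passed, and 18 were lower. With all libraries kept 2 of 76 sex values passed. Leaving the most counted name out of the total set the cerebrum means to 6735, 818.9, 1121 and 561 CPM, and 4 tissues in place of 8 passed for the correlation. As within-rat differences (the replicate block) 0 of 79 neighbours passed. The smallest p of 10 rats is 0.00195, which 3 of these tests reached, at an adjusted p of 0.0514 in this exact sign-flip test. With at least 10 counts of both names the ratios were -0.334, 0.196 and 0.599, as reported, the second with the other sign. With all libraries kept the mature share of miR-132-3p differed by 7.68 points (adjusted p = 0.0938 by exact permutation, where the unadjusted p of 0.0117 is that of the reported test and 8 shares were adjusted in place of 2). Its 5′ end share differed by -2.905 to 0.183 when each rat was left out, with the positive value without rat 6. Except for that p, the causes were not tested. A minimum of 200 reads gave too few libraries outside the brain, and no composite name held a member, so neither alternative gave a value. Few reads outside the brain, above all in testis and blood, limit the values of miR-132-5p and miR-212-5p.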

Other observations

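The other libraries left out of the comparisons held these values. The library labelled Duodenum of rat 11 held 11.1 CPM of miR-132-3p and was closest to the adrenal gland (median r = 0.966). The libraries labelled Hippocampus held 15.8 (rat 2), 20.8 (rat 6) and 167 CPM (rat 7) of miR-132-3p and were closest to uterus (0.964), duodenum (0.959) and ovary (0.975). The libraries of the adrenal gland of rat 8 and the uterus of rat 8, which were used, were closest to the duodenum (0.947 and 0.952) and held 21.9 and 30.1 CPM of miR-132-3p. Precursor entries of the hairpins, which were not members, held 57, 2 and 1 counts over all samples.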
